A study of Mus musculus with 10 samples.

Results

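Cofilins are small proteins that sever and depolymerise actin filaments. The 9 genes described here encode the cofilin family and the enzymes that switch it: Cfl1, Cfl2 and Dstn (the filament-severing proteins cofilin 1, cofilin 2 and destrin), Limk1 and Limk2 (the LIM kinases), and Ssh1, Ssh2, Ssh3 and Pdxp (the slingshot phosphatases and chronophin). They are 9 of 24411 genes listed in the deposited table, and all 9 passed the filter on low counts that left 13287 genes for testing. The members were chosen from the gene family by name, and the set was picked from the comparison of paclitaxel with vehicle because Cfl2 had higher depth-scaled counts in every paclitaxel library than in any vehicle library. That difference, and every other paclitaxel against vehicle value of a member, is therefore given as a description with no test.

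Lumbar spinal cord of mice was the tissue, and the groups were paclitaxel (5 libraries) and vehicle (5 libraries). Paclitaxel is a microtubule-stabilising cancer drug that can cause a painful neuropathy, and the study asks about spinal gene expression in a mouse model of it. The labels used here name no strain, sex, age, dose or time after treatment. They also do not say if each library came from its own mouse, so every error and p-value here describes the variation among libraries, which may be technical. Totals of expected counts ran from 3676259 to 5432072 per library with paclitaxel and from 4585899 to 7791594 with vehicle. Markers of spinal cord cells were present: all 9 neuron, 8 astrocyte, 7 oligodendrocyte and 7 microglia markers passed the filter, while 1 of 6 dorsal root ganglion markers did. That 1 was Isl2, at 3.29 CPM with paclitaxel and 3.08 with vehicle on average. The others of that list had at most 10 counts over all libraries together. In bulk tissue, fewer cells of a type and less RNA per cell cannot be told apart.

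Actin filaments in neurons turn over quickly in growth cones and dendritic spines, and cofilin drives that turnover by cutting old filaments and freeing monomers. LIM kinases, which are switched on by the kinases ROCK and PAK, phosphorylate cofilin near its start and stop it from binding actin. Slingshots and chronophin remove that phosphate and restore severing. Cfl1 is the broadly expressed form, Cfl2 is the form of skeletal muscle that the nervous system also expresses, and destrin, also called ADF, is the form with the strongest depolymerising activity.

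The sequences just before the starts of the 3 family genes are shown because Cfl2, the gene that led to the set, differs from Cfl1 in base composition. Each is the 250 bases before the RefSeq start on GRCm38.p6, on the strand of the gene, and all 9 members had an entry in the RefSeq table. Capitals mark GGGCGG and CCAAT, each found on either strand; 4 of the GGGCGG matches before Cfl2 lie in a single run and overlap or adjoin.
Cfl1, plus strand, chr19:5490205-5490454: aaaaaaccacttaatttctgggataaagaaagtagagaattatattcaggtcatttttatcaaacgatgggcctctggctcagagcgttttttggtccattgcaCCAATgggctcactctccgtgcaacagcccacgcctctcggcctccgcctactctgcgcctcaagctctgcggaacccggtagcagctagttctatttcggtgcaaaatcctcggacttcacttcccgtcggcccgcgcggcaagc
Cfl2, minus strand, chr12:54862878-54863127: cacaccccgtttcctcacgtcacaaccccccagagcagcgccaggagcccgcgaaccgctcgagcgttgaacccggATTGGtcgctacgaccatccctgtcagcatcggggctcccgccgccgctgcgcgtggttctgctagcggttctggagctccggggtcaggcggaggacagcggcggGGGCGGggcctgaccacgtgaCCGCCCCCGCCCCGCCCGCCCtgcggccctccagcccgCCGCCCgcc
Dstn, plus strand, chr2:143915081-143915330: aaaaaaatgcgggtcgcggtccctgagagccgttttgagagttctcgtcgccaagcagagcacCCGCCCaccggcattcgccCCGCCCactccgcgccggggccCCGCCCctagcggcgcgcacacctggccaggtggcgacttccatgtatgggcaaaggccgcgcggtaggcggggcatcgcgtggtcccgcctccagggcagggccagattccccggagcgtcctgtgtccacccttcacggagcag

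The Cfl2 window held 6 matches of GGGCGG, the Dstn window 3 and the Cfl1 window 0. At least 1 match was present in 32.7% of the 32851 windows of the same length in the table. CCAAT occurred 1 time before Cfl1 and 1 time before Cfl2 and was not found before Dstn (33.8% of all windows hold it). Neither TATAAA (12.4% of windows) nor a CArG box, the motif bound by serum response factor (1.47% of windows), was found in any of the 3, searched on both strands. The Cfl2 window held 32 CpG dinucleotides, the Dstn window 28 and the Cfl1 window 16, against a median of 6 over all windows. These are matches of letters, and no measurement of the promoters was used here.

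Cfl1 was the most abundant member by far. Levels of different genes were compared as CPM (counts scaled for library depth, with TMM factors) per kilobase of the longest coding transcript, since longer transcripts give more reads. With vehicle Cfl1 stood at 270 ± 12.2 CPM per kb (SD, n = 5), above 99.0% of 13244 genes with a length. The kinase Limk1 followed at 84.2 ± 5.62 and Dstn at 82.9 ± 2.57 CPM per kb. These 2 neighbours overlapped in both groups, and with paclitaxel Dstn (87.4 ± 5.25) had the higher mean and Limk1 (79.4 ± 4.95) the lower (CPM per kb, SD, n = 5).

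Chronophin, Pdxp, was the most abundant phosphatase at 51.8 ± 2.98 CPM per kb with vehicle (SD, n = 5), though 43.8% of the 50-base words of its transcript also occur in another gene. Cfl2 came next at 43.9 ± 1.77, apart from Pdxp in all vehicle libraries, while the ranges of Pdxp (47.6 to 53.0) and Cfl2 (46.3 to 53.0) overlapped with paclitaxel. Limk2 stood at 37.4 ± 2.97 CPM per kb with vehicle. The slingshots were the lowest members, with vehicle levels of 10.9 ± 0.990 for Ssh3, 5.07 ± 0.0982 for Ssh2 and 2.27 ± 0.263 CPM per kb for Ssh1 (SD, n = 5 each). The median gene stood at 9.15 CPM per kb of its longest transcript, so Ssh1 and Ssh2 were below it by that length. By the mean length of its coding transcripts Ssh2 was at 9.90 CPM per kb with vehicle. The median gene was not computed by mean length.

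**Figure D1:**
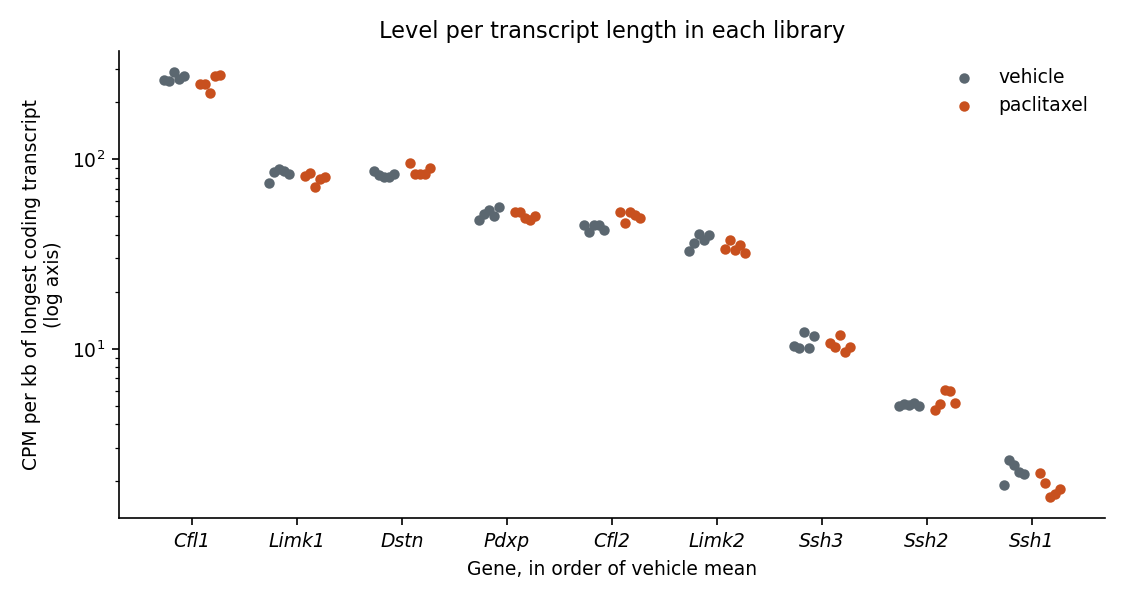
Level of each gene in each library as CPM per kilobase of its longest coding transcript on a log axis, with vehicle in grey and paclitaxel in orange; each point is 1 library. Cfl1 lies above all others (270 CPM per kb with vehicle), Limk1 and Dstn overlap, and the 3 slingshots lie lowest.

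The levels per length depend on which transcript the reads come from. GENCODE lists a Cfl1 coding transcript of 1148 bases, inside the RefSeq span of the gene, beside the longest one of 2354 bases, which runs past that span. With the shorter length Cfl1 would stand at 554 CPM per kb. With the mean length of all coding transcripts the vehicle order of the 9 genes was the same. With paclitaxel that length put Limk1 (117 ± 7.32) above Dstn (87.4 ± 5.25 CPM per kb, SD, n = 5 each), the turn of their order by longest transcript, and the 2 genes then overlapped in neither group. By the longest transcripts, Cfl1 made up 68.0 ± 1.23% of the summed cofilin family level with vehicle, Dstn 20.9 ± 1.03% and Cfl2 11.1 ± 0.425% (SD, n = 5). The shorter Cfl1 length would raise the share of Cfl1 and lower the others.

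Cfl2, the actin-severing cofilin of muscle and nervous tissue, was at 155, 136, 156, 149 and 143 CPM in paclitaxel replicates 1 to 5. In the vehicle libraries it was at 133, 122, 133, 133 and 125 CPM. The lowest paclitaxel library, replicate 2, thus lay just above the highest vehicle library, replicate 1, and the groups did not overlap. The means were 148 ± 8.28 and 129 ± 5.19 CPM (SD, n = 5 each), which gave a fold of 1.14 and a log2 fold change of 0.19 (SE 0.06). Cfl2 is the single member whose groups did not overlap, with paclitaxel higher in 1 of 9 members and lower in 0 of 9. Over all 13287 tested genes, paclitaxel was higher without overlap in 0.467% and lower without overlap in 0.625%. Because the same contrast chose the set, nothing is read from that count.

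**Figure D2:**
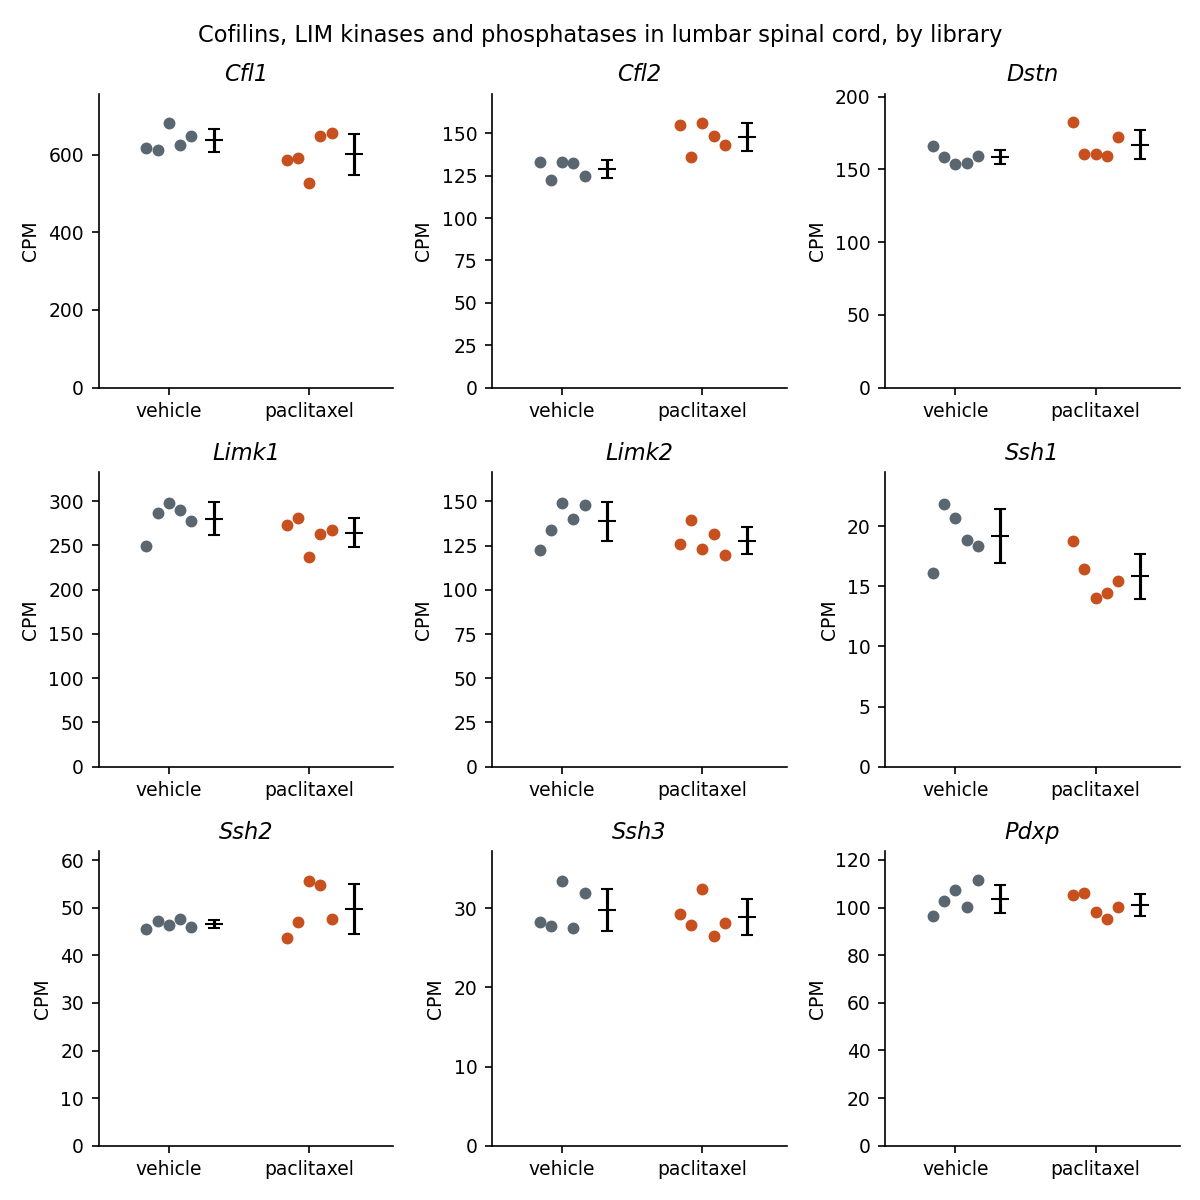
CPM of the 9 genes in each library, 1 panel a gene with the axis from 0; points are libraries in replicate order, and bars give the mean and SD of 5 libraries. The 5 paclitaxel libraries of Cfl2 (136 to 156 CPM) lie above its 5 vehicle libraries (122 to 133 CPM), and every other gene overlaps between groups.

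The main cofilin of the tissue did not follow Cfl2. Cfl1 was at 585, 591, 526, 649 and 655 CPM in paclitaxel replicates 1 to 5 and at 616, 611, 681, 625 and 649 CPM in the vehicle replicates. The groups overlapped: 3 paclitaxel libraries lay below every vehicle library, and 2 lay within the vehicle range. The log2 fold change was -0.08 (SE 0.06), and -0.04 without paclitaxel replicate 3, the library with the least Cfl1.

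Destrin (Dstn; chromosome 2, 143915331 to 143943324, plus strand) was at 182, 161, 161, 159 and 172 CPM in paclitaxel replicates 1 to 5 and at 166, 159, 154, 155 and 159 CPM in the vehicle replicates. All 5 paclitaxel libraries were above the vehicle mean, but the highest vehicle library, replicate 1, exceeded 3 of them. The log2 fold change of Dstn was 0.08 (SE 0.06), and 0.05 without paclitaxel replicate 1.

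Ratios of counts within a library do not depend on how libraries are scaled, but they keep any shift that differs between transcripts, such as the GC shift described below, and they reuse the Cfl2 values that chose the set. The ratio of Cfl2 to Cfl1 counts was 0.265, 0.230, 0.296, 0.229 and 0.219 in paclitaxel replicates 1 to 5, and 0.216, 0.200, 0.195, 0.212 and 0.192 in the vehicle replicates. The means were 0.248 ± 0.0322 and 0.203 ± 0.0105 (SD, n = 5 each), and the lowest paclitaxel value lay barely above the highest vehicle value. The ratio of Cfl2 to Dstn counts overlapped between groups (0.886 ± 0.0613 and 0.816 ± 0.0435, SD, n = 5 each), as did that of Dstn to Cfl1 (0.280 ± 0.0283 and 0.249 ± 0.0165). By length, Cfl2 made up 12.8% of the cofilin family level on average with paclitaxel (11.7 to 14.7%), above its range of 10.6 to 11.5% with vehicle. After the GC and length correction described below, the log2 ratio of Cfl2 to Cfl1 was -2.08 ± 0.12 with paclitaxel and -2.24 ± 0.06 with vehicle (SD, n = 5 each), and the groups overlapped, with 4 paclitaxel libraries above every vehicle library. The corrected family share of Cfl2 also overlapped, at 11.6 to 13.1% with paclitaxel and 10.9 to 11.8% with vehicle.

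The LIM kinases, which inactivate cofilin, had lower mean counts with paclitaxel, within ranges that overlapped. Limk1, the form enriched in the nervous system (chromosome 5, 134656039 to 134689859, minus strand), was at 273, 281, 237, 263 and 268 CPM in paclitaxel replicates 1 to 5 and at 249, 287, 298, 291 and 278 CPM in the vehicle replicates. Vehicle replicate 1 was the lowest of its group and lay below 4 of the 5 paclitaxel libraries. Its log2 fold change was -0.08 (SE 0.06), -0.04 without paclitaxel replicate 3. Limk2, the broadly expressed form (chromosome 11, 3343297 to 3409276, minus strand), was at 128 ± 7.71 CPM with paclitaxel (119 to 139) and 139 ± 11.0 with vehicle (122 to 149; SD, n = 5 each), a log2 fold change of -0.12 (SE 0.06). In 4 of 5 paclitaxel libraries each kinase was below its vehicle mean. The Limk2 to Limk1 count ratio was 0.484 ± 0.0300 with paclitaxel and 0.495 ± 0.0248 with vehicle (SD, n = 5 each), and the groups overlapped.

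Among the phosphatases, Ssh1 had the difference of greatest size of all 9 members. Ssh1 (chromosome 5, 113937094 to 113993803, minus strand) encodes the best studied slingshot, which is activated on actin filaments. It was at 18.7, 16.5, 14.0, 14.5 and 15.4 CPM in paclitaxel replicates 1 to 5 and at 16.1, 21.8, 20.7, 18.9 and 18.3 CPM in the vehicle replicates. Every paclitaxel library was below the vehicle mean and 3 were below all vehicle libraries, yet vehicle replicates 1 and 5 lay within the paclitaxel range. The means were 15.8 ± 1.89 and 19.2 ± 2.22 CPM (SD, n = 5 each), a log2 fold change of -0.27 (SE 0.11). Ssh1 also had the fewest counts of the members, from 53 to 143 per library, and the largest standard error.

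Ssh2, its close relative (chromosome 11, 77216157 to 77460220, plus strand), had values in the other direction. It was at 43.6, 46.9, 55.6, 54.8 and 47.7 CPM in paclitaxel replicates 1 to 5, against 45.6 to 47.7 CPM in the 5 vehicle libraries. Paclitaxel replicates 3 and 4 were above all vehicle libraries, replicate 1 was below all of them, and the other 2 lay within their range. Its coefficient of variation was 10.6% with paclitaxel and 1.94% with vehicle. The log2 fold change of Ssh2 was 0.09 (SE 0.08), and 0.05 without paclitaxel replicate 3. The Ssh2 to Ssh1 count ratio was 3.21 ± 0.678 with paclitaxel and 2.45 ± 0.265 with vehicle (SD, n = 5 each), and the groups overlapped.

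The other phosphatases differed by less than their standard errors. Ssh3, the slingshot that does not bind actin filaments (chromosome 19, 4261668 to 4269233, minus strand), was at 28.8 ± 2.27 CPM with paclitaxel and 29.8 ± 2.71 with vehicle, a log2 fold change of -0.05 (SE 0.09), -0.003 without vehicle replicate 3 and -0.09 without paclitaxel replicate 3. Pdxp, a haloacid dehalogenase type phosphatase that also cleaves pyridoxal phosphate, was at 101 ± 4.67 and 104 ± 5.97 CPM, a log2 fold change of -0.04 (SE 0.06; SD, n = 5 each), -0.008 without vehicle replicate 5 and -0.06 without vehicle replicate 1. Over the 9 members, 3 had positive and 6 negative log2 fold changes, with a median of -0.05 beside -0.003 over all genes tested. No gene of the 13287 was called at an adjusted p under 0.05 by edgeR (0%), members included, and DESeq2 called 1. At an unadjusted p under 0.05 edgeR listed 806 of 13287 genes, 1299 of 13282 without vehicle replicate 1 and 515 of 13483 without vehicle replicate 3. A share of about 0.05 of genes would pass that threshold if none differed.

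**Figure D3:**
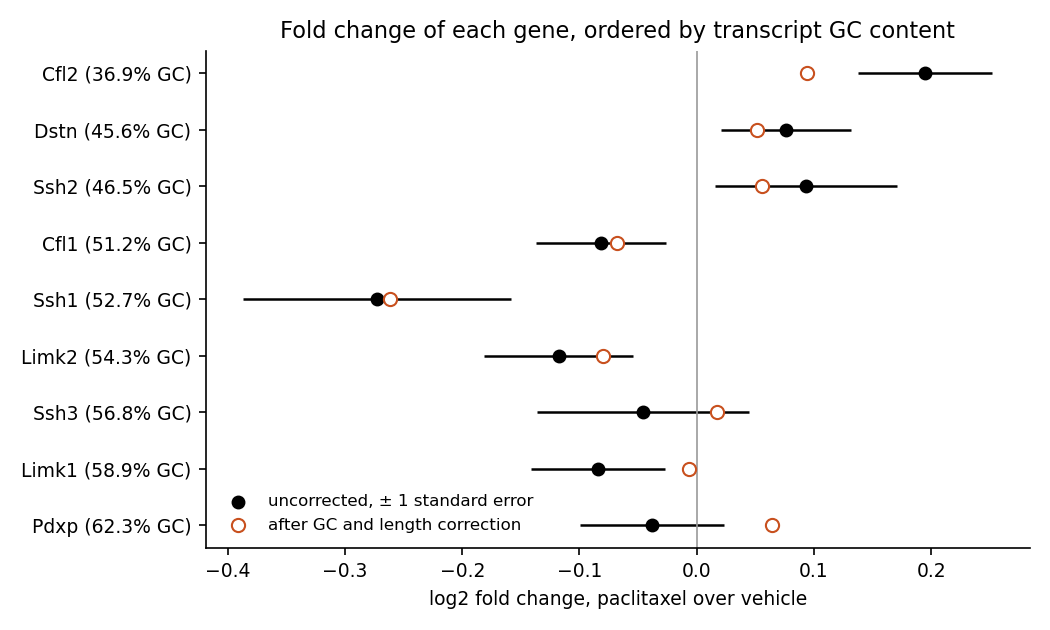
Log2 fold change of paclitaxel over vehicle for each gene, ordered from low to high transcript GC content; filled points with bars are the uncorrected estimate and 1 standard error, and open points the estimate corrected for transcript GC content and length. Cfl2 goes from 0.19 to 0.09, Ssh1 stays near -0.27 (-0.26), and Ssh3 and Pdxp change sign.

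The base composition of the transcripts moved with these differences. Cfl2 has the lowest GC content of the members, 36.9% of its longest transcript, followed by Dstn (45.6%) and Ssh2 (46.5%), and these are the 3 members with positive fold changes. Cfl1 (51.2%), Ssh1 (52.7%), Limk2 (54.3%), Ssh3 (56.8%), Limk1 (58.9%) and Pdxp (62.3%) had negative ones. The same order ran through the table as a whole: of 10305 genes at a mean of 10 CPM or more, divided into 10 bins by GC content, the bin of lowest GC had a median log2 fold change of 0.09 with 85.8% of its genes higher with paclitaxel. The bin of highest GC had a median of -0.08 with 16.97% higher. All 9 members had the sign of their bin's median, as did 69.6% of the 10305 genes. In the bin that holds Cfl2, 1.75% of genes were higher without overlap, against 0% in the bin of highest GC.

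**Figure D4:**
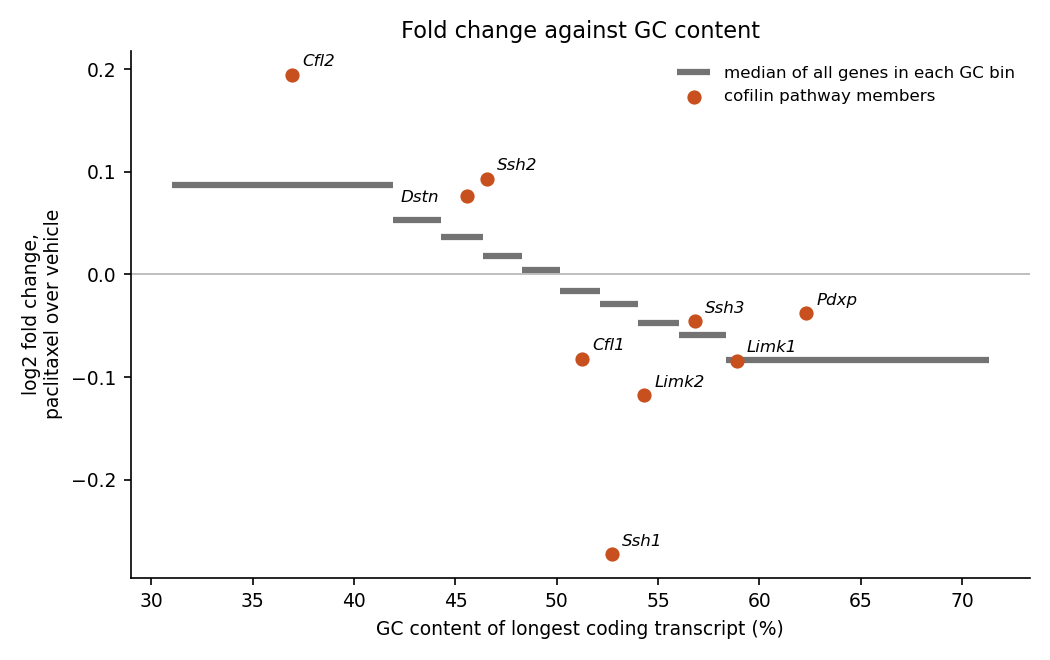
Log2 fold change of paclitaxel over vehicle against the GC content of the longest coding transcript; grey bars are the medians of about 1030 genes in each of 10 GC bins, drawn over the bin's range, and orange points are the 9 members. The medians go from 0.09 in the bin of lowest GC to -0.08 in the bin of highest GC, with Cfl2 above the first of them and Ssh1 well below its own.

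Each library was therefore also fitted with a smooth curve (loess) of its deviation from the mean library on GC content and transcript length, and the fitted shift was removed. For Cfl2 the shift was 0.03, -0.05, 0.20, 0.04 and 0.04 on the log2 scale in paclitaxel replicates 1 to 5 and 0.09, -0.10, -0.13, -0.06 and -0.06 in the vehicle replicates. The shifts overlapped between groups: paclitaxel replicate 2 was negative, vehicle replicate 1 was positive, and paclitaxel replicate 3 had the largest. The GC bins rest on these same 10 libraries, however many genes they hold. After removal Cfl2 stood at 7.16 ± 0.06 log2 CPM with paclitaxel and 7.07 ± 0.09 with vehicle (SD, n = 5 each). The groups then overlapped, with vehicle replicate 3 (7.19) above 4 of the paclitaxel libraries, and the log2 fold change was 0.09. Limk1 went to -0.007, Limk2 to -0.08, Ssh2 to 0.06, Dstn to 0.05 and Cfl1 to -0.07. Ssh3 (0.02) and Pdxp (0.06) changed sign, while Ssh1 was at -0.26.

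**Figure D5:**
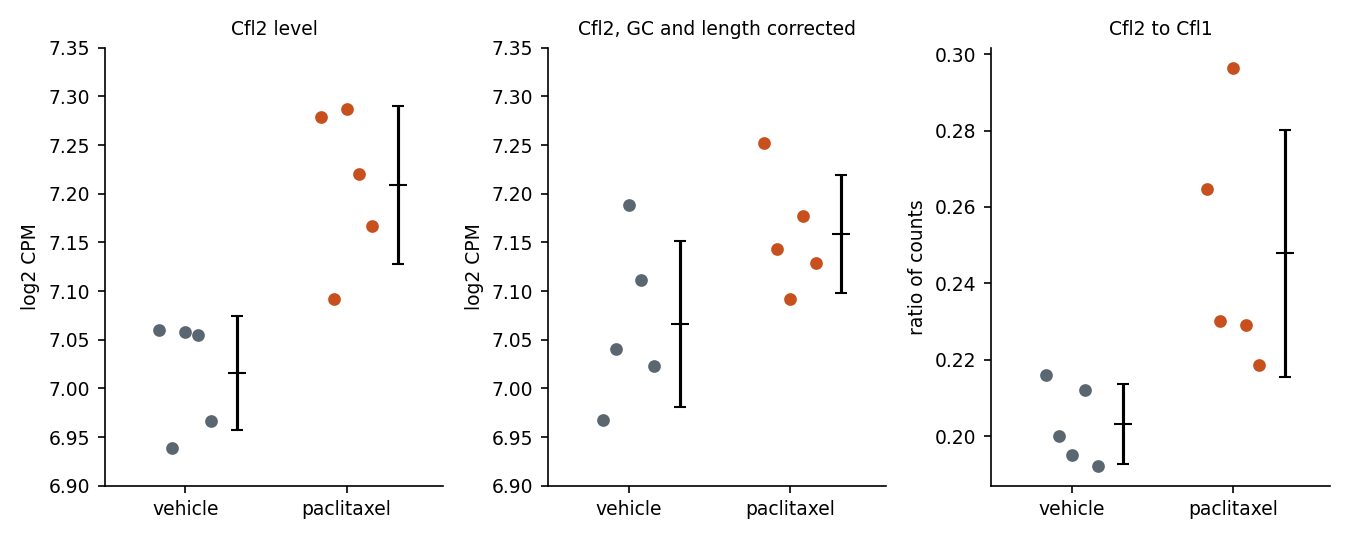
Cfl2 in each library: log2 CPM, log2 CPM after the GC and length correction, and the ratio of Cfl2 to Cfl1 counts; points are libraries in replicate order, bars are the mean and SD of 5, and the axes do not start at 0. The groups are apart in the first panel and in the uncorrected ratio of the last, and overlap after the correction (7.16 and 7.07 on average); the ratio overlaps too once corrected.

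Markers of skeletal muscle, whose main cofilin is Cfl2, were near 0 in both groups. The 15 skeletal muscle markers summed to 4.25 to 8.44 CPM with paclitaxel and 4.16 to 7.81 CPM with vehicle, and none of them passed the filter on low counts. Acta1, skeletal actin, was at most 1.30 CPM in any library, and Ckm, muscle creatine kinase, at most 0.550 CPM. Casq1, a calcium-storage protein of the muscle reticulum, and Actn3, a muscle actinin, were the highest of the list, with maxima of 3.05 and 2.39 CPM. Their means were 2.03 ± 0.605 and 1.73 ± 0.360 CPM with paclitaxel, and 1.77 ± 0.682 and 1.37 ± 0.579 CPM with vehicle (SD, n = 5 each). The 7 vascular smooth muscle markers summed to 17.4 to 30.7 CPM with paclitaxel and 26.8 to 33.5 CPM with vehicle, with Actg2 at 0 in all libraries and all 4 tested markers lower in value. Summed neuron markers ran from 10745 to 12760 CPM with paclitaxel and from 12423 to 13238 CPM with vehicle. Astrocyte markers ran from 6424 to 6915 and from 6200 to 6634 CPM. The lowest neuron and smooth muscle sums were with paclitaxel, as was the highest astrocyte sum, and the groups overlapped in each. The median neuron sum was 12581 CPM with paclitaxel and 12559 with vehicle, though 7 of the 9 neuron markers had lower values with paclitaxel and 2 higher. Of the 8 astrocyte markers, 6 had higher values with paclitaxel and 2 lower. For smooth muscle the medians were 26.2 and 30.8 CPM, and for astrocytes 6706 and 6399 CPM. The part of these cell types in the Cfl2 difference was not tested.

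Some reads of the members may belong to other genes. Cfl1 (chromosome 19, 5490455 to 5494031, plus strand) shares 468 exonic bases with Snx32 on the opposite strand, 114 of them inside the RefSeq span of Cfl1. Of the 50-base words of its longest transcript, which runs past that span, 23.0% also occur in transcripts of other genes, chiefly Snx32 and Gm6180. The share for the shorter transcript was not computed. Cfl2 (chromosome 12, 54858815 to 54862877, minus strand) shares 81 exonic bases with the divergent noncoding RNA 1700081N11Rik, and 1.18% of its words occur elsewhere. Pdxp (chromosome 15, 78912160 to 78919517, plus strand) shares 903 exonic bases with Gm49510 on the same strand and 43.8% of its words with that gene. The level of Pdxp is therefore uncertain. Gm49510, Gm6180 and 1700081N11Rik are not among the genes listed with counts, while Snx32 is. No 50-base word was shared between any 2 members, and Dstn, the LIM kinases and the slingshots shared none with other genes. As no source used here names the strand setting, sense and antisense reads cannot be told apart.

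Whether members vary together was read from deviations of log2 CPM from the group mean, which removes the contrast that chose them. Over the 36 pairs and 10 libraries, 20 correlations were positive and 16 negative, and none passed after adjustment (exact permutation test within groups, two-sided, smallest adjusted p = 0.406; 1 pair at an unadjusted p under 0.05). That pair was the kinase Limk1 with the phosphatase Ssh1, with Pearson's r = 0.78 (exact permutation p = 0.0153, adjusted p = 0.406) and Spearman's rank correlation = 0.79 (exact permutation p = 0.015, adjusted p = 0.54). Without paclitaxel replicate 3 and vehicle replicate 1, the libraries farthest from the median of Limk1, r was 0.53. Cfl2 and Cfl1 had r = -0.26, and Cfl2 and Dstn r = 0.19. After the GC and length correction these were 0.40 and 0.34, and Cfl2 with Limk1 went from -0.43 to 0.79 (exact permutation p = 0.00708, adjusted p = 0.23). With the correction 4 pairs had an unadjusted p under 0.05 and none passed after adjustment. These points share library depth and base composition.

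The genes whose deviations were most like those of Cfl2 over the 10 libraries, of 10312 others at 10 CPM or more, were Cog2 (r = 0.94), Pgr (r = 0.93) and Arhgef7 (r = 0.92). Cog2 encodes a Golgi tethering subunit, Pgr the progesterone receptor and Arhgef7 an exchange factor for Rac and Cdc42 that binds PAK. For Cfl1 they were Fkbp1b, an FK506-binding protein (r = 0.96), Tmco1, a calcium channel of the endoplasmic reticulum (r = 0.95), and Stx4a, a syntaxin (r = 0.95). Over all these genes the middle 90% of r ran from -0.58 to 0.62 for Cfl2 and from -0.71 to 0.72 for Cfl1. The named genes are the top of that range by choice. All r values of this paragraph are without the GC and length correction, which moved r of Cfl2 with Limk1 from -0.43 to 0.79.

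Of 14 tested genes of other regulators of cofilin phosphorylation and of slingshots (TESK and PKD kinases, calcineurin and 14-3-3 proteins), 8 were positive and 6 negative, with a median of 0.02. The calcineurin subunit Ppp3r1, part of the phosphatase that activates slingshots, had a log2 fold change of 0.12 (SE 0.06), 0.05 with the GC and length correction and 0.07 without paclitaxel replicate 3. That of the 14-3-3 gene Ywhag was -0.07 (SE 0.04), -0.05 with the correction and -0.04 without the same library. None of them passed (edgeR adjusted p of 0.80 or more).

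Partners of cofilin in filament disassembly (Cap, Wdr1, coronin and Mical genes among others) had 2 positive and 12 negative values of 14 tested and a median of -0.04. The sign counts of the lists are given without the GC and length correction, and nothing is read from them. The monooxygenase gene Mical1 and the coronin gene Coro1a had the lowest p. Mical1 was at -0.21 (SE 0.15), and at -0.15 after the GC and length correction. Coro1a was at -0.14 (SE 0.11), -0.07 after the correction and -0.08 without vehicle replicate 3. Of 6 other tested genes with an ADF homology domain, 3 were positive and 3 negative, with the twinfilin gene Twf2 at -0.17 (SE 0.10; -0.09 after the correction and -0.11 without paclitaxel replicate 4) and Dbnl, an actin-binding adaptor, at -0.10 (SE 0.06; -0.04). Actins with monomer-binding and filament-binding proteins had 8 positive and 11 negative values and a median of -0.05. There the transcriptional coactivator of serum response factor Mkl1 was at -0.21 (SE 0.09), and at -0.14 after the correction. The tropomyosin gene Tpm4 was at -0.19 (SE 0.09), and at -0.22 after the correction. No gene of these 3 lists passed (edgeR adjusted p of 0.79 or more).

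Actin nucleators had 19 positive and 2 negative values of 21 tested, with a median of 0.03 beside -0.003 over all genes. This count too is without the GC and length correction. Over all genes the sign moved with GC content, from 85.8% higher in the bin of lowest GC to 16.97% in the highest. Nothing is therefore read from the count. The formin gene Daam1 was at 125 ± 10.3 CPM with paclitaxel and 114 ± 3.66 with vehicle (SD, n = 5 each), a log2 fold change of 0.13 (SE 0.06; 0.09 after the GC and length correction). Actr3b, an isoform of the Arp3 subunit of the branching complex, was at 35.3 ± 3.04 and 31.6 ± 1.76 CPM (SD, n = 5 each), a log2 fold change of 0.16 (SE 0.08), also 0.16 after the correction and 0.10 without paclitaxel replicate 3. Its paclitaxel libraries all lay above its vehicle libraries, as in 0.467% of all genes, and it is the single gene of the lists described whose groups did not overlap; after the correction they did. No nucleator passed (edgeR adjusted p of 0.80 or more).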

How the data were processed

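RNA of 10 lumbar spinal cord libraries was measured. The authors deposited 1 table of expected counts per gene (RSEM estimates, with no depth scaling). The submitters' processing notes name STAR, RSEM, edgeR 4.2.0 and build mm10; other versions, strand and read filters were not stated in the labels. The deposited estimates were rounded, which altered 5.04% of them. No library was a copy of another: chi-square per degree of freedom between libraries of a group ran from 1.63 to 6.88. Paclitaxel replicate 3 was the least like the others of its group, with values from 5.08 to 6.88. The highest value of a pair without it was 4.53, for vehicle replicates 1 and 5. The cause was not tested.

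Counts were filtered with filterByExpr (minimum count 10, minimum total 15) and scaled by TMM in edgeR 4.0.16 (R 4.3.3). Across all genes the groups were compared with the quasi-likelihood test, two-sided, with Benjamini-Hochberg adjusted p at a threshold of 0.05. Each standard error was the size of the log2 fold change over the square root of F. A prior count of 2 was added for log2 CPM. GENCODE M21 transcripts on GRCm38, the assembly that mm10 names, gave GC content and length for 99.7% of tested genes. Gene positions and promoters are those of RefSeq on GRCm38.p6. The fit and the correlations were tested on simulated data, and the outcome is not reported here. The pathway genes named are the 2 of lowest p in each list described and the 3 genes most correlated with Cfl2 or Cfl1. A further pathway list is not reported here. The members and lists were chosen with earlier results of these data known. Alternatives were other scalings, filters, DESeq2 1.42.0, limma-voom (limma 3.58.1), a replicate block, the GC and length correction, and leaving out each library.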

Additional observations from a re-analysis of the deposited data

How the results depend on the processing

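Over 18 alternatives the log2 fold change of Cfl2 ran from 0.09 to 0.23 and was positive in all of them. It was 0.094 with the GC and length correction and 0.18 to 0.23 when each library was left out; the cause of the drop was not tested. Ssh3 and Pdxp changed sign in 1 of 18 settings each, the same correction, and the other 7 members kept their sign. With other scalings no member changed sign. The count of genes past the adjusted threshold was 0 in 16 alternatives, 1 in DESeq2 (Klf4) and 1 with the replicate block (Fos), both named after their values were seen; the cause was not tested. In that block fit Cfl2 was at 0.19. The labels do not say if the replicate numbers pair the samples, and no pairing was seen throughout. Over 10321 genes the deviations of same-numbered libraries correlated from -0.17 to 0.24, over 0.1 in 2 of 5 pairs. Of the paclitaxel libraries, 2 of 5 correlated best with their own number. A pairing of only some numbers was not tested. No pathway gene described passed in any alternative. No pair of members passed with Spearman's rank correlation, with DESeq2 size factors, without any 1 library or after the GC and length correction, the last 2 added after the data were seen. With the mean transcript length the vehicle levels per kb were 447 for Cfl1, 124 for Limk1, 14.5 for Ssh3, 9.90 for Ssh2 and 4.34 for Ssh1, and with the shorter coding transcript of Cfl1, added after the data were seen, 554, because the divisor is smaller. At this depth 3 counts were 0.385 to 0.816 CPM, and every member was above that in all libraries. The corrected ratio, family share and the paclitaxel levels by mean length were likewise added after the data were seen.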
